A study of Homo sapiens with 12 samples.

Results

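GPC3 and 7 other oncofetal genes of liver cancer, IGF2, IGF2BP1, IGF2BP3, LIN28B, PEG10, DLK1 and SALL4, were followed through the histone mark summits deposited for Huh7, an established human hepatocellular carcinoma line. The 8 genes were taken by name from a fixed list, and all 8 were found among 19974 protein-coding genes of RefSeq (GRCh38.p14) on chromosomes 1 to 22 and X. The cells, labelled wild type, were kept for 48 h in choline-free DMEM to which 15 µM or 0 µM choline chloride was given, with B-27 in place of serum. H3K27ac, a mark of active promoters and enhancers, and H3K4me1, a mark of enhancers whether active or poised, were each profiled by ChIP-seq at 15 µM and at 0 µM, in 1 library per mark and dose. Every difference below is therefore between 2 libraries, with no replicate spread and no p-value.

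Oncofetal genes are active in the fetus, are silenced in most adult tissues and are switched on again in tumours, and GPC3 is among the best known of them in liver cancer. GPC3 encodes a heparan sulfate proteoglycan anchored to the cell surface. IGF2 is a fetal growth factor, and IGF2BP1 and IGF2BP3 are RNA-binding proteins that stabilise and localise messenger RNAs, that of IGF2 among them. LIN28B is an RNA-binding protein that blocks the maturation of the let-7 microRNAs. PEG10 is a gene derived from a retrotransposon, DLK1 is a transmembrane protein with EGF-like repeats made by fetal liver progenitors, and SALL4 is a zinc-finger transcription factor of stem cells. IGF2, PEG10 and DLK1 are imprinted and expressed from the paternal copy.

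RefSeq promoter sequences were at hand for 2 of the 8 genes, as 3 annotated starts, and the bases before these starts are shown. The distance from the start to the nearest H3K27ac summit differed between them. It also differed between the doses, most at IGF2BP3 and at the second LIN28B start. Capitals mark matches on either strand to CACCC or CCNCNCCC, which are GC-rich letters of the kind bound by KLF and SP factors, where the whole match lies in the printed stretch. The IGF2BP3 stretch is chr7:23470492-23470741, minus strand. The LIN28B stretches are chr6:104940715-104940964 and chr6:104956857-104957106, plus strand, all in GRCh38.p14 and written 5′ to 3′.
IGF2BP3: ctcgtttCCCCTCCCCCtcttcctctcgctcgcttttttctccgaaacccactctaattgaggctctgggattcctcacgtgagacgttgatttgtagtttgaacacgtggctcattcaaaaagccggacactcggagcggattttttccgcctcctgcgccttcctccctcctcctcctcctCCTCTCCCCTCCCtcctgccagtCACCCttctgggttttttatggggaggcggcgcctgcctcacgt
LIN28B, first start: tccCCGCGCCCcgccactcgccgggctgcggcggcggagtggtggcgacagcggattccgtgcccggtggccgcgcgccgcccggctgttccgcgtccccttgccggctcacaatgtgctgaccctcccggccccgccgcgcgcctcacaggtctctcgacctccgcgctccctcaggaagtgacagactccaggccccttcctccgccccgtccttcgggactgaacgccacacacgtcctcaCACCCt
LIN28B, second start: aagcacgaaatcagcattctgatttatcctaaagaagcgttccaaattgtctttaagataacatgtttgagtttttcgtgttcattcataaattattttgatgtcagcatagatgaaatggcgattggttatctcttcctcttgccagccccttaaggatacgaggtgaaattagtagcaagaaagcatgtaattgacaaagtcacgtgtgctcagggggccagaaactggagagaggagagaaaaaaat
The first LIN28B start stood in a stretch that was 73% G or C, with 37 CG pairs over 300 bases, and the second in a stretch of 39% with 8. The IGF2BP3 stretch lay between them at 56.3% with 17. Over 35116 annotated starts of the same length, the median was 58.7% with 14 CG pairs. CACCC was found in 59.9% of them, CCNCNCCC in 56.2% and the TATA box letters TATAAA in 11.5%, counted over 300 bases that reach 50 bases past the start. IGF2BP3 held 1 CACCC and 4 CCNCNCCC matches, some of which overlap each other. The first LIN28B start held 2 matches of each kind, of which 1 of each kind runs past or lies past the start and is not shown. The second held none, and no stretch held TATAAA.

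For H3K27ac 29305 summits were listed at 15 µM, against 37946 at 0 µM, a ratio of 0.772, and the H3K4me1 lists 349202 and 343156, a ratio of 1.02. Counts of a gene are therefore given as listed and as a scaled ratio, meaning 15 µM over 0 µM divided by the ratio of the list lengths. A gene was called higher or lower when this ratio was at least 1.5-fold from 1 and the 2 lists of the mark together held at least 5 summits there. Of 10 hepatocyte markers, 9 had an H3K27ac summit within 1 kb of a gene end at 15 µM, against 16.2% of all protein-coding genes. At 0 µM 7 of the 10 had one, against 28.3%. In their windows of 50 kb 5 of the 10 were called higher and 1 lower, against 17.6% and 30.9% of 7179 genes. For H3K4me1 0 of the 10 were called higher and 2 lower, against 9.70% and 7.75%, with a median ratio of 0.75. AFP, the fetal serum protein, had 42 H3K27ac summits at 15 µM, against 18 at 0 µM, a scaled ratio of 3.02, and was called lower for H3K4me1, with 23 and 41. ALB, of the same locus on chromosome 4 and among the 5 called higher, had 44 and 24 for H3K27ac and 20 and 37 for H3K4me1. How many summits the windows of AFP and ALB share was not counted, so they are not taken as separate observations. Around 4 blood cell markers there were 2 and 3 H3K27ac summits in all, and around 4 stellate and endothelial markers 15 and 12. Of these 4, PECAM1, with 9 and 6, and COL1A2, with 5 and 4, were called higher, COL1A1 had 1 and 2, and CDH5 had 0 at both doses. PECAM1 also had an H3K27ac summit within 1 kb of a gene end at both doses. The blood marker CD3E had one at 15 µM and not at 0 µM. Summits near the gene ends are listed peaks of chromatin, and RNA was not analysed here, so nothing below is an expression level.

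Within 50 kb of the gene ends, 6 of the 8 genes had H3K27ac densities above at least 93.6% of protein-coding genes at each dose. IGF2 and DLK1 had no summit there at 15 µM, and at 0 µM they lay above 42.6% and 69.7% of genes. PEG10 had the highest H3K27ac density at 15 µM, with 17.6 summits per 100 kb of window, above 99.6% of protein-coding genes, and 15.9 at 0 µM. SALL4 had 15.0 at 15 µM and 20.8 at 0 µM, and GPC3 had 12.5 and 20. These 3 genes thus lay above at least 98.7% of protein-coding genes at each dose. LIN28B had 9.0 and 8.5 per 100 kb, IGF2BP3 had 8.0 and 10.5, and IGF2BP1 had 6.27 and 8.15. DLK1 had 0 and 2.69, and IGF2 had 0 and 0.83, against a median over all protein-coding genes of 0.5 at 15 µM and 1.0 at 0 µM. With 1 library per dose, no order between neighbours in this ranking could be set against a spread.

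Over the 8 genes the windows held 107 H3K27ac summits at 15 µM, against 138 at 0 µM, a raw ratio of 0.775 and a scaled ratio of 1.0. The members' total thus followed the length of the lists. Of the 6 genes with enough summits, 0 were called higher, against 17.6% of 7179 protein-coding genes, and 0 were called lower, against 30.9%. Their median scaled ratio was 0.992 and that of the 7179 genes 0.906. PEG10 and LIN28B had the ratios furthest above 1, and GPC3 the ratio furthest below.

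**Figure D1:**
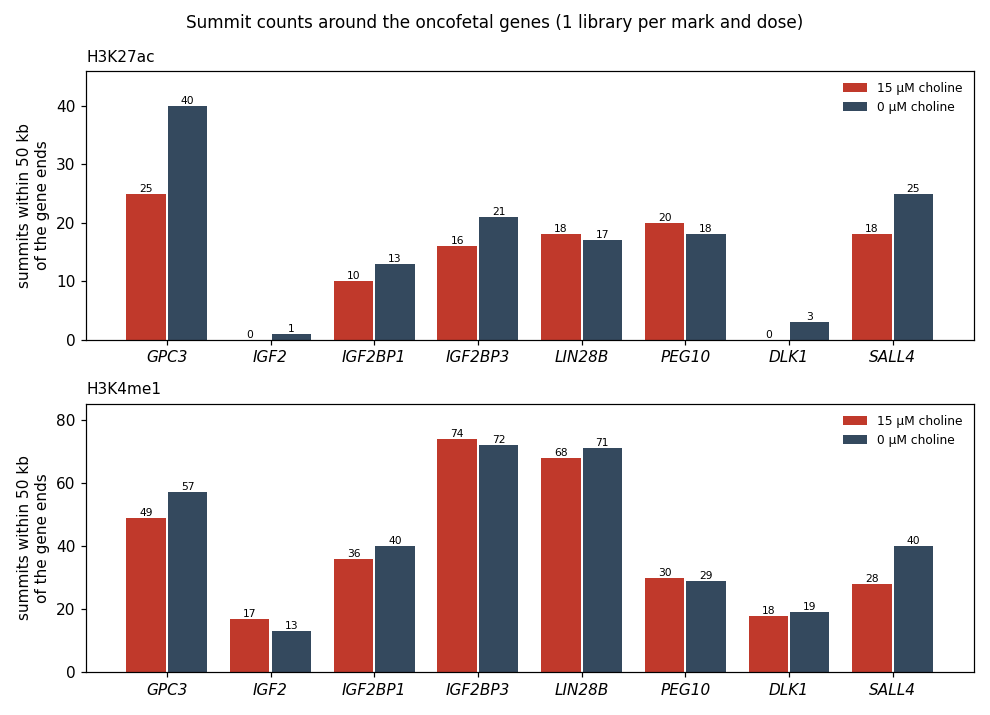
Summits within 50 kb of either gene end for each of the 8 genes, H3K27ac above and H3K4me1 below, with 15 µM choline in red left of 0 µM in dark blue and the count over each bar. The bars are single libraries with no error. For H3K27ac, PEG10 (20 and 18) and LIN28B (18 and 17) are the genes with more summits at 15 µM. GPC3 shows the widest gap in counts as listed (25 and 40). With the 0 µM counts scaled by list length it does not, as GPC3 has 25 against 30.9 and PEG10 20 against 13.9.

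GPC3 (chromosome X, 133535745 to 133985594, hg38) carried all of its H3K27ac in and beside its high-coordinate end, which as background is the end where its transcription starts. In the gene body 15 H3K27ac summits were listed at 15 µM, against 43 at 0 µM, a scaled ratio of 0.452 (exact 95% interval 0.233 to 0.829, counting error only). This was the only body called lower among 4 oncofetal genes with enough summits, and 0 were called higher. Over 2381 protein-coding genes, 21.2% of bodies were called lower and 25.5% higher, with a median ratio of 1.06, so a call of this kind is common. The window of 50 kb around the ends, which leaves out the deeper part of the body, held 25 and 40 summits, a scaled ratio of 0.809 (0.471 to 1.37). With 100 kb it held 28 and 58 and was called lower, at 0.625. With summits within 1 kb merged, the body held 12 at 15 µM, against 27 at 0 µM. Among summits scoring at or above the median of their list the body held 9 and 18, a scaled ratio of 0.677 that is not past the limit, and the window 19 and 21, a scaled ratio of 1.22 on the other side of 1. Leaving out ties at the median, the body held 9 and 16, a ratio of 0.728, and the window 19 and 18, a ratio of 1.37.

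The difference in GPC3 was widest between 50 and 100 kb inside the gene. In the first 50 kb from the high-coordinate end there were 10 H3K27ac summits at 15 µM, against 17 at 0 µM, in the next 50 kb 3 and 18, and in the third 2 and 8. Grouping summits with gaps of at most 12.5 kb gave 4 summits between 348 and 357 kb above the low-coordinate end at 15 µM, with a highest score of 18.7, and 15 summits between 345 and 362 kb above it at 0 µM, with a highest score of 22.6. The low-coordinate stretch of the gene, 348 kb at 15 µM and 313 kb at 0 µM, had no listed H3K27ac summit. Beyond the high-coordinate end the highest-scoring summit at 0 µM, 8.91 kb outside the gene with a score of 39.1, had a 15 µM summit 77 bp away. At 15 µM the highest score was 27.5, 20.9 kb outside the gene, and a 0 µM summit lay 344 bp from it.

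H3K4me1 was spread along all of GPC3, including the stretch without H3K27ac. Its body held 177 H3K4me1 summits at 15 µM, against 145 at 0 µM, a scaled ratio of 1.2 (0.958 to 1.5), while the window around its ends held 49 and 57, a ratio of 0.845. In the 150 kb nearest the high-coordinate end there were 78 and 80. In the other 300 kb there were 99 at 15 µM and 65 at 0 µM, a scaled ratio of 1.5, and this boundary was chosen after the values were seen. Of summits scoring at or above the median of their list the stretch held 49 and 47, and without ties at the median 49 and 33, a ratio of 1.41, so this value depended on the ties. With summits within 1 kb merged it held 63 and 50, a ratio of 1.23. Within 20 kb of the ends the H3K4me1 counts went the other way, with 14 and 26 and a scaled ratio of 0.529. The highest-scoring H3K4me1 summit at 15 µM lay 46.3 kb inside the gene with a score of 35.5, and an H3K27ac summit of the same dose was 20 bp away. At 0 µM the highest score, 15.8, lay 128 kb inside, and 5950 bp from the nearest H3K27ac summit.

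**Figure D2:**
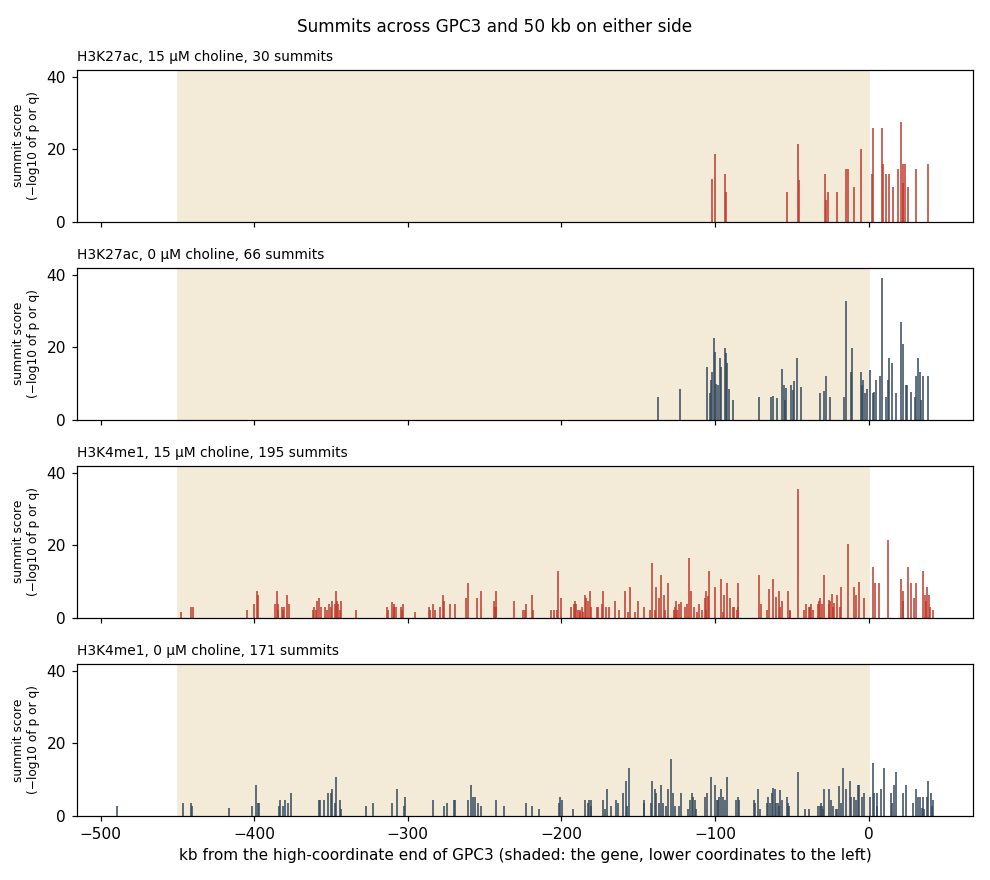
Position of every summit across GPC3 (shaded) and 50 kb on either side, in kb from the high-coordinate gene end, with the height giving the summit score, H3K27ac in the upper panels and H3K4me1 in the lower, 15 µM in red above 0 µM in dark blue. H3K27ac is absent from the left part of the gene in both lists and denser at 0 µM (66 summits) than at 15 µM (30), whereas H3K4me1 runs along the whole gene. Heights rank summits only inside their own list.

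**Figure D3:**
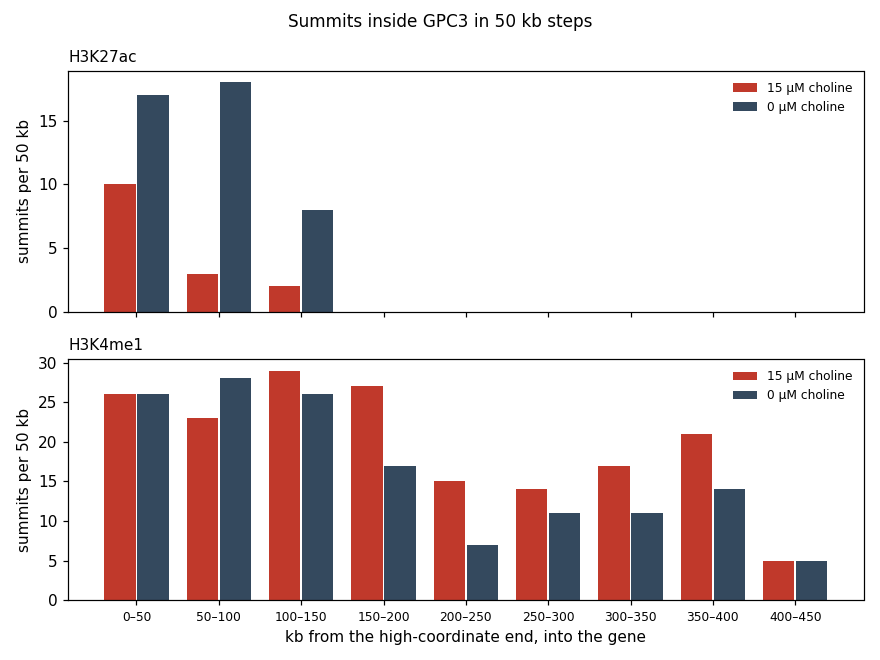
Number of summits inside GPC3 in steps of 50 kb from the high-coordinate end, H3K27ac above and H3K4me1 below, 15 µM in red left of 0 µM in dark blue, single libraries. H3K27ac is at 0 beyond 150 kb at both doses, and H3K4me1 is higher at 15 µM in most of the steps beyond 150 kb.

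The protein-coding genes whose 4 window counts were most like those of GPC3 were NRP1, FAM47E and PIGL. Likeness was the Euclidean distance between log2(count + 1) values over the 4 lists, and it was 0.275, 0.528 and 0.536 in that order. NRP1 had 28 H3K27ac summits at 15 µM, against 36 at 0 µM, FAM47E had 21 and 32, and PIGL had 27 and 29. None of them lies on chromosome X.

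The RNA-binding proteins of the list, IGF2BP1, IGF2BP3 and LIN28B, kept most of their H3K27ac inside the gene. IGF2BP1 (chromosome 17, 48996558 to 49056145) had 10 window summits at 15 µM, against 13 at 0 µM, a scaled ratio of 0.996, of which 9 and 11 lay in the gene. Those in the gene lay towards its low-coordinate end, the transcription start as background, and 6 of 10 window summits at 15 µM and 8 of 13 at 0 µM lay in LOC124904020, an overlapping long noncoding RNA gene. At 15 µM 2 summits flanked that end, outside it at 48995577 with a score of 12.3 and 878 bp inside it with 9.15, while the nearest summit at 0 µM lay 3422 bp outside. This was the 1 gained H3K27ac end among the 8 genes, and it was no longer gained when absence within 10 kb was required. The highest-scoring IGF2BP1 summit lay 2.96 kb inside the gene at 15 µM, with a score of 17.6, and 16.6 kb inside at 0 µM, with 35.7 and a 15 µM summit 300 bp away.

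IGF2BP3 (chromosome 7, 23310209 to 23470491) had 16 window summits at 15 µM, against 21 at 0 µM, a scaled ratio of 0.987, in separate groups near its ends. The start end differed between the doses. At 15 µM a group of 4 H3K27ac summits reached to 4.76 kb outside it, and at 0 µM a group of 8 reached to 4.81 kb outside. At 15 µM the summit nearest to the annotated start whose upstream bases are shown above lay 1296 bp upstream with a score of 25.0, and at 0 µM the nearest lay 163 bp downstream with 45.6. Since that is within 2 kb, the end was not counted as lost. Within 20 kb of the gene ends IGF2BP3 had 6 summits at 15 µM and 14 at 0 µM, a scaled ratio of 0.555. Within 100 kb it had 18 and 26, a ratio of 0.896 that was not called. With summits within 1 kb merged, the 50 kb window held 14 and 15, a ratio of 1.24 on the other side of 1. Towards the low-coordinate end, 12 summits lay between 10.1 and 49.2 kb inside the gene at 15 µM and 7 and 3, in separate groups, between 5.9 and 50.8 kb inside at 0 µM. They included a high-scoring summit at the same place in both lists, 31 bp apart, scoring 31.4 at 15 µM and 78.3 at 0 µM. The 78.3 was the highest H3K27ac score of the 0 µM list at the 8 genes, above 99.4% of its list. Only at 0 µM were there 3 summits in the middle of the gene, with no 15 µM summit within 33815 bp.

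LIN28B (chromosome 6, 104937026 to 105083332) was acetylated along its whole body, with 22 H3K27ac summits at 15 µM, against 20 at 0 µM, a scaled ratio of 1.42 (0.742 to 2.75). Its window held 18 and 17, a ratio of 1.37 (0.667 to 2.83). The window ratio reached the limit with both lists at equal length, at 18 and 12 summits and a ratio of 1.5. It also did among summits at or above the median score, at 10 and 6 and 2.26, and without ties at the median, at 10 and 5 and 2.59. It did not within 20 kb of the ends, at 9 and 10 and 1.17, or within 100 kb, at 24 and 22 and 1.41. Nor did it with summits within 1 kb merged, at 16 and 16 and 1.33, or over the whole gene plus 50 kb, at 1.42. The share of all genes past the limit was not counted under these settings. A summit at the low-coordinate end was present in both lists, 153 bp inside it at 15 µM and 139 bp inside it at 0 µM, in the stretch where LIN28B-AS1 overlaps. The annotated start with the GC-rich sequence shown above had no H3K27ac summit nearby, the nearest being 3786 bp upstream at 15 µM and 3800 bp at 0 µM. The AT-rich second start had 1 at 2453 bp downstream at 15 µM and at 1661 bp at 0 µM. The highest-scoring LIN28B summit lay 16.9 kb from the low-coordinate end at 15 µM with a score of 21.0, and 14.9 kb from it at 0 µM with 45.9. They lay 2074 bp apart.

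SALL4, the transcription factor of the list (chromosome 20, 51782331 to 51802521), had 18 H3K27ac window summits at 15 µM, against 25 at 0 µM, a scaled ratio of 0.932. Most of them were not in SALL4: 15 of 18 at 15 µM and 19 of 25 at 0 µM lay inside ATP9A, the neighbouring phospholipid-transporting ATPase gene, on the low-coordinate side of SALL4. The highest-scoring summits of the window were in that group, 567 bp apart, with 40.5 at 15 µM and 70.5 at 0 µM. The gene body held 1 and 3, too few for a ratio. At the high-coordinate end, the transcription start as background, the nearest summit lay 532 bp outside at 15 µM and 1083 bp outside at 0 µM. Another summit 8.46 kb outside that end scored 31.8 at 15 µM, and its 0 µM partner, 234 bp away, scored 20.2. Within 20 kb of the gene ends there were 4 summits at 15 µM and 9 at 0 µM, a ratio of 0.575. Within 100 kb there were 29 and 33, a ratio of 1.14 on the other side of 1.

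PEG10 (chromosome 7, 94656325 to 94669695) also stood beside an acetylated neighbour. Of its 20 window summits at 15 µM, 15 lay in SGCE, the epsilon-sarcoglycan gene that starts next to it on the other strand, counting 5 where SGCE overlaps CASD1. Of 18 at 0 µM, 14 did, counting 4 of the same kind. The scaled ratio was 1.44 (0.723 to 2.88), under the limit. It was past the limit within 20 kb of the ends, at 11 and 9 summits and 1.58, and within 100 kb, at 27 and 20 and 1.75. It was also past it with summits within 1 kb merged, at 16 and 13 and 1.63, and at or above the median score, at 16 and 12 and 1.8. With both lists at equal length it was not, at 20 and 17 summits and a ratio of 1.18. The gene itself held 2 summits at 15 µM, 1 of them on its first annotated base with a score of 11.7 and the other 1564 bp inside with 7.03, and 0 at 0 µM, where the nearest summit lay 1165 bp outside. Its summits were the most alike between the doses, as 13 of 20 (65%) at 15 µM and 13 of 18 (72.2%) at 0 µM had a summit of the other list within 500 bp.

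IGF2 and DLK1, the growth factor and the progenitor surface protein, had at most 3 listed H3K27ac summits in their windows at either dose. IGF2 (chromosome 11, 2129117 to 2149566) had no listed summit within 50 kb at 15 µM and 1 at 0 µM, inside the gene with a score of 7.65, and at 15 µM the nearest summit lay 140039 bp from its low-coordinate end. DLK1 (chromosome 14, 100726892 to 100738224) had none at 15 µM and 3 at 0 µM, all 12.3 to 16.1 kb beyond its high-coordinate end, with scores up to 15.8. The nearest 15 µM summit to DLK1 lay 521389 bp away. H3K4me1 was listed at both loci, with 17 summits at 15 µM, against 13 at 0 µM, around IGF2 and 18 and 19 around DLK1, and no score there was above 7.42. With the H3K27ac list entered only from a score of 5.01, weaker acetylation would not be seen.

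**Figure D4:**
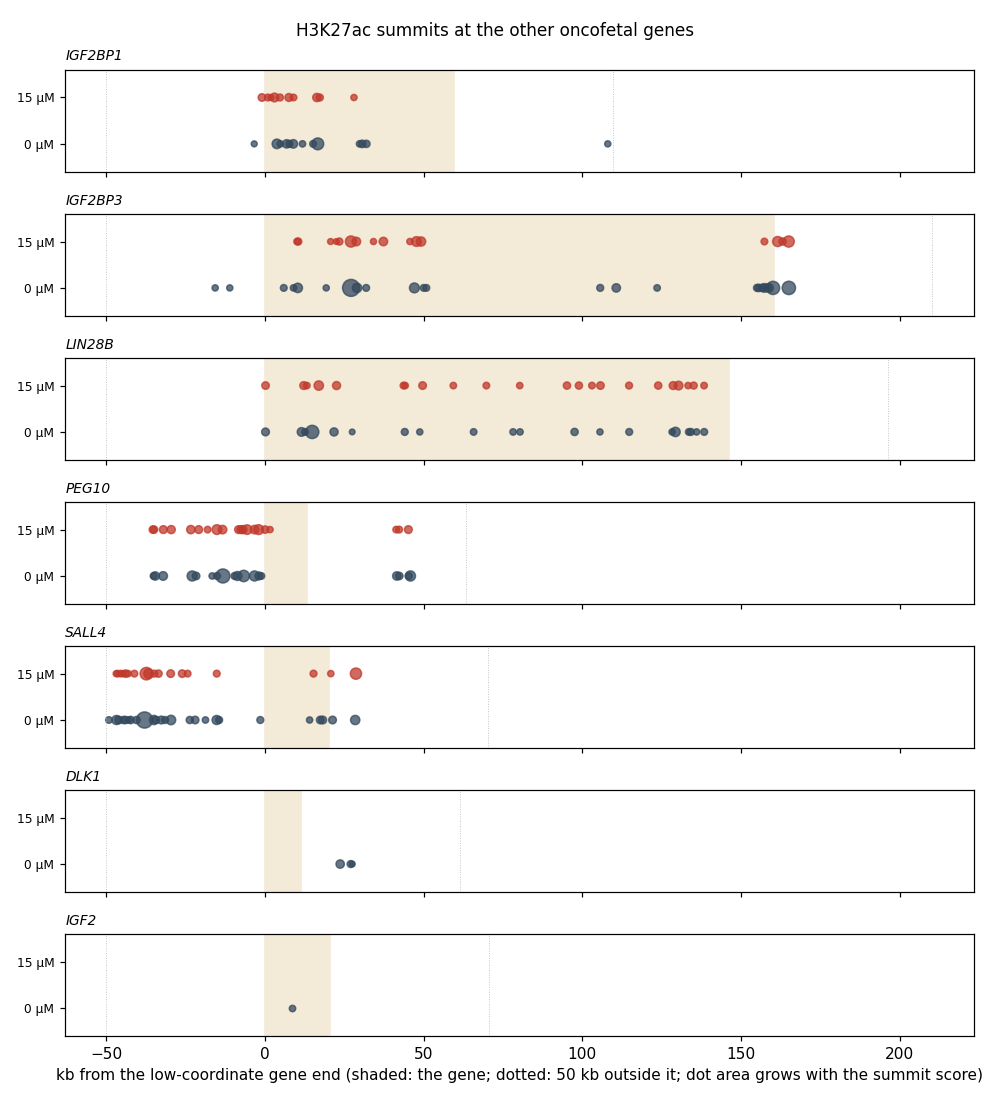
H3K27ac summits at the other 7 genes, in kb from the low-coordinate gene end, with 15 µM in red above 0 µM in dark blue, the gene shaded, dotted lines 50 kb outside it, and dot area growing with the summit score. LIN28B carries summits along the whole gene in both lists, those of PEG10 and SALL4 sit mostly outside the gene, and IGF2BP3 has 3 summits in mid-gene only at 0 µM.

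A summit within 1 kb of a gene end was found for 4 of 8 genes at 15 µM, IGF2BP1, LIN28B, PEG10 and SALL4, against 16.2% of all protein-coding genes. At 0 µM it was found for 3, GPC3, IGF2BP3 and LIN28B, against 28.3%. Only LIN28B thus had it in both lists, but each of the other ends had a summit within 2 kb at the other dose except that of IGF2BP1. The gained ends were 1 of 4, against 10.5% over all genes, and the lost ends 0 of 3, against 43.9%. Counts this small allow no statement on the 8 genes as a set.

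For H3K4me1 the windows held 320 summits at 15 µM, against 341 at 0 µM, a scaled ratio of 0.922. None of the 8 was called higher, where 9.70% of 18875 protein-coding genes were, and none lower, where 7.75% were. SALL4 had the lowest ratio, 0.688, with 28 and 40 summits, and within 100 kb it was called lower, with 42 and 65 and a ratio of 0.635. IGF2 had the highest, 1.29. IGF2BP3 with 74 and 72 and LIN28B with 68 and 71 had the densest H3K4me1, above 96.9% or more of protein-coding genes per 100 kb of window at both doses. In the gene bodies 340 and 317 were listed, a scaled ratio of 1.05, and 163 and 172 without GPC3. IGF2 was the only body called higher, of 7 with enough summits, on 5 and 3 summits with a ratio of 1.64 (0.319 to 10.5), where 14.7% of 11873 bodies were, and 0 were called lower, where 16.7% were. With summits within 1 kb merged, IGF2 had 3 and 3 and a ratio of 0.975.

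H3K4me1 lay within 1 kb of a gene end for 2 genes at 15 µM, IGF2 and PEG10, against 52.9% of all genes, and for 5 at 0 µM, GPC3, IGF2BP3, LIN28B, PEG10 and SALL4, against 51.6%. GPC3 had the 1 lost end of 5, where 8.92% of all ends with a summit were lost. Its nearest H3K4me1 summit lay 2449 bp inside the low-coordinate end at 15 µM, and 689 bp outside the high-coordinate end at 0 µM. None of the 2 ends at 15 µM was gained, where 10.9% were.

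The marks were then set against each other. Of the members' H3K27ac window summits, 65.4% at 15 µM (70 of 107, exact 95% interval 55.6 to 74.4) and 72.5% at 0 µM (100 of 138, 64.2 to 79.7) had an H3K4me1 summit of the same dose within 1 kb. Over all H3K27ac summits within 50 kb of a protein-coding gene end the shares were 58.8% and 64.3%. The first lies inside its interval and the second at the lower edge of it, and the intervals cover counting error only. Among the genes the share ran from 50% for IGF2BP1 and PEG10 to 77.8% for LIN28B and SALL4 at 15 µM, and at 0 µM, where IGF2 and DLK1 had 1 and 3 summits, from 55.6% for PEG10 to 92% for SALL4 over the other 6.

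Between the doses, 51.4% of the members' H3K27ac summits at 15 µM (55 of 107, 41.5 to 61.2) and 38.4% at 0 µM (53 of 138, 30.3 to 47.1) had a summit of the other list within 500 bp, close to the 50.7% and 38.7% of the whole lists. For H3K4me1 the shares were 52.2% (46.6 to 57.8) and 47.5% (42.1 to 53.0), against 43.5% and 44.5% of the whole lists. The H3K4me1 summits of these genes lay more densely than the median over protein-coding genes, 15.7 per 100 kb at 15 µM and 14.9 at 0 µM, for every gene but IGF2, which had 14.1 and 10.8. The part of density in the share was not tested.

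Relatives and partners of the 8 genes were taken from lists, which were chosen with earlier results of these data known. Those named below were picked by a gained or lost H3K27ac end, by a window call or after their values were seen. The 13 relatives, which are other glypicans, SALL, LIN28, IGF2BP and DLK proteins, IGF1 and RTL1, had 41 H3K27ac window summits at 15 µM, against 48 at 0 µM. Of 6 with enough summits, 2 were called higher and 1 lower, against 17.6% and 30.9% of all protein-coding genes, with a median ratio of 1.08 against 0.906. The glypicans GPC5, with 9 and 7, and GPC6, with 18 and 13, were the higher ones, and IGF2BP2, with 4 and 9, was the lower one. GPC4, the glypican next to GPC3 on chromosome X, had 0 at both doses. Of the 13, 3 were called higher for H3K4me1 and 0 lower, against 9.70% and 7.75% of all genes.

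The 20 partners and neighbours had 86 and 95 H3K27ac summits, and of 7 with enough summits 2 were called higher and 2 lower, with a median ratio of 1.1, against the same 17.6%, 30.9% and 0.906 over all genes. IRS1, the adaptor of the insulin and IGF receptors, had 27 at 15 µM and 23 at 0 µM, and SGCE had 27 and 21 in a window that overlaps that of PEG10. H19, the imprinted noncoding RNA gene beside IGF2, had 1 and 6, and HBEGF, an EGF receptor ligand, had 2 and 4. HMGA1, a chromatin protein of fetal cells, had the 1 lost H3K27ac end among 4 present at 0 µM, where 43.9% of all were lost, with 0 and 1 window summits. IGF1R, the receptor of IGF2, had 3 and 3, and HMGA2, a target of let-7, had 17 and 20. For H3K4me1, 2 of 20 were called higher and 3 lower, against 9.70% and 7.75%. With lists this short, these counts say nothing particular about relatives or partners.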

How the data were processed

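The 4 summit lists of the ChIP-seq libraries were used, and the other 8 of the 12 samples were not analysed here. The authors deposited 1 summit per line with a score, read here as a −log10 p-value or q-value from the layout and the values. Its exact kind, the calling threshold and any use of input are not given in the sources used here. Read depths are likewise unknown. The submitters' processing notes name hg38 and the tools MACS2, deepTools, Picard and Bowtie, with no versions. H3K27ac lists begin at a score of 5.01 and H3K4me1 lists at 1.3 (15 µM) and 1.31 (0 µM), so marks are not compared by list length.

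Counting used the summits of chromosomes 1 to 22 and X, with Python 3.11.15, numpy and pandas, within 50 kb of either gene end, in the gene body and within 1 kb of an end. An end was gained or lost when the other list had no summit within 2 kb of either end. Exon, intron and UTR annotation was not used here, and the strands of genes other than IGF2BP3 and LIN28B are textbook background. Intervals are exact Clopper-Pearson, and those of ratios come from the share of the 2 lists' summits that were in the 15 µM list. The counting was tested on simulated data. All 8 genes were named in full, with relatives and partners named by a gained or lost H3K27ac end or a call in their H3K27ac window. IGF1R, HMGA2 and GPC4 were named after their values were seen. The members and lists were chosen with earlier results of these data known.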

Additional observations from a re-analysis of the deposited data

How the results depend on the processing

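The scaled ratios of window and body totals over the 8 genes stayed inside the counting interval of the main value under every alternative run. These were windows of 20 and 100 kb, equal list lengths, summits at or above the median score and summits within 1 kb merged. Added after seeing the data were whole genes plus 50 kb, 7 genes without GPC3 and scores above the median without ties. For H3K27ac windows they ran from 0.881 to 1.25. The H3K27ac bodies of the 8 genes held 62 summits at 15 µM, against 98 at 0 µM, a scaled ratio of 0.819 (0.586 to 1.14). Without GPC3 they held 47 and 55, a ratio of 1.11 on the other side of 1. Of the values recomputed for single genes, 133 stayed inside their interval and 25 changed between called, not called and too few summits to call. The H3K4me1 window of GPC3 within 20 kb was 0.529, the H3K27ac body of LIN28B without ties was 2.85, and the H3K4me1 body of IGF2 with merged summits turned to 0.975.

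Counts of ends and shares of matched summits followed the distance. With 500 bp in place of 1 kb, H3K27ac ends numbered 2 at 15 µM with 0 gained, and H3K4me1 ends 0 at 15 µM and 2 at 0 µM with 0 lost. With 2 kb there were 5 H3K27ac ends at 0 µM, and 6 H3K4me1 ends at 15 µM with 1 gained. Requiring absence within 10 kb left 0 gained H3K27ac and 0 lost H3K4me1 ends, and at or above the median score 0 H3K4me1 ends were found at 15 µM and 3 at 0 µM. Within 200 bp the H3K27ac shares matched between doses were 32.7% at 15 µM and 23.9% at 0 µM, and within 2000 bp 87.9% and 77.5%. For H3K4me1 they were 24.4% and 23.2%, and 85.6% and 84.2%. At or above the median score they were 39.1% for H3K27ac at 15 µM, and 46.3% and 40.8% for H3K4me1. The share of H3K27ac summits with H3K4me1 was 41.1% at 15 µM and 45.7% at 0 µM within 500 bp, 85.0% and 91.3% within 2 kb, and 49.5% and 57.2% with H3K4me1 scores of at least 5. No paired analysis was possible because each mark and dose had 1 library. Read depth is unknown, so an unlisted summit is not an absent mark.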
